A study of Homo sapiens with 4 samples.

Results

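Retroelement restriction factors are host proteins that limit retroviruses and the retrotransposons of the genome. Their genes were followed here in 2 human tumour lines, H1299 from a non-small cell lung cancer and HCT116 from a colorectal cancer. The set holds 10 genes given by name, a choice made with earlier results of these data known: APOBEC3B, APOBEC3C, APOBEC3F, APOBEC3G, TRIM5, SAMHD1, MOV10, ZC3HAV1, TREX1 and RNASEH2A. They are 10 of 40877 names in the gene table that stand for 1 gene each (43296 names in all, the others joining several genes). A gene's counts are the sum over the features whose name, before any feature number, equals the gene symbol. Of the 10 genes, 9 had such a feature, and TREX1 was listed only under a name that joins it with ATRIP. With a count under their own name there were 8 genes in the untreated H1299 library and 9 in each of the others.

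The assay was single-cell RNA sequencing with the 5′ kit of 10x Genomics, which reads polyadenylated transcripts near their start. Each line was kept either with the solvent DMSO alone or with a pair of epigenetic inhibitors, and the libraries are called untreated (DMSO) and treated (DAC+SB). DAC (decitabine, 500 nM) blocks DNA methyltransferases and was present for 72 h, and SB939 (500 nM) blocks histone deacetylases and was present for 18 h, with fresh medium every 24 h and cells at passages 5 to 10. Each of the 4 combinations was 1 library, so the spread within a combination could not be estimated, and no test between conditions was run. Every interval given in parentheses is an exact 95% interval, unless another kind is named, and covers counting error only. Differences between libraries have no replicate check. Where 4 values follow each other, they are in the order untreated H1299, treated H1299, untreated HCT116, treated HCT116.

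The proteins act at different steps of a retroelement's life. APOBEC3 enzymes deaminate cytidines in the first DNA strand made by reverse transcriptase, and TRIM5 binds incoming retroviral capsids. SAMHD1 breaks down the deoxynucleotides that reverse transcription needs. MOV10, an RNA helicase, and ZAP, the zinc finger antiviral protein encoded by ZC3HAV1, bind retroelement RNA and lower its abundance or translation, and both are known to restrict the L1 retrotransposon in cultured cells. TREX1 digests cytosolic DNA, and RNase H2, whose catalytic subunit is RNASEH2A, cuts RNA paired with DNA. Several of these genes are known to respond to interferon.

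Promoter sequence is shown for 4 genes that the results below turn on, because the treatment acts on DNA methylation at CpG dinucleotides and on chromatin. Sequence before a RefSeq transcription start (GRCh38.p14) was matched for 6 of the 10 genes, in 8 windows of 250 bases. MOV10 and ZC3HAV1, which were lower with treatment in both lines, are given with every CpG in capitals. The MOV10 stretch (chr1:112674189-112674420, plus strand, 232 bases) stops where annotated untranslated sequence of another transcript begins. It precedes a RefSeq start but lies inside the annotated span of MOV10 in GENCODE v29. ZC3HAV1 is a whole window outside the span of that gene (chr7:139109721-139109970, minus strand).
MOV10: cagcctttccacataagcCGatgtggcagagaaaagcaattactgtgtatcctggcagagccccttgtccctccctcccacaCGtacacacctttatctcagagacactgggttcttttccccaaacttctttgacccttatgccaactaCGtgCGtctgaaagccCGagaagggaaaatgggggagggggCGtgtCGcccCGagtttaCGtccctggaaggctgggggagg
ZC3HAV1: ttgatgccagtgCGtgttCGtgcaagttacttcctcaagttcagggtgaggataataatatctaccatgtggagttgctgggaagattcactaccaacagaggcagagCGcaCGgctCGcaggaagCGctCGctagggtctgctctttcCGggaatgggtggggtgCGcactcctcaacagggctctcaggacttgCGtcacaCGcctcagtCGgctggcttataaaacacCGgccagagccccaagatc
These stretches hold 9 and 13 CpGs, and the complete MOV10 window holds 10. The median over all 35116 windows of the table was 11 CpGs, with quartiles of 3 and 23, so both promoters lie between the quartiles. RNASEH2A had 26 CpGs in its window, SAMHD1 14, TRIM5 5 and TREX1 3.

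For SAMHD1 and TRIM5, 30 bases around a motif are shown in the direction of transcription, with the motif in capitals. These stretches lie before the RefSeq start of the table but inside the gene's annotated span in GENCODE v29. In that annotation 193 bases of the SAMHD1 window and all 250 of the TRIM5 and TREX1 windows are untranslated sequence of some transcript. In SAMHD1 (chr20:36951821-36951850, minus strand) it is the core site of the transcription factor NRF1, searched on both strands as GCGC, any base and TGCGC, present in 5.07% of all windows. In TRIM5 (chr11:5685082-5685111, minus strand) it is the core of an interferon-stimulated response element, searched on both strands as GAAA, any 2 bases and GAAA, present in 3.02% of all windows; the letters shown are its reverse complement.
SAMHD1: gactgccattGCGCCTGCGCagggagccca
TRIM5: atagtttatcTTTCACTTTCctgccctgag
Counted from the RefSeq start, the NRF1 match begins at position -132 and the TRIM5 match at -27. ZC3HAV1 had a TATA box (TATAAA, in 10.7% of windows) at position -29. A CCAAT box (CCAAT, in 32.0% of windows) was found in the windows of SAMHD1, TRIM5 and RNASEH2A, and a GC box (GGGCGG, in 42.6%) in that of TRIM5. No window of a matched member held the E2F core (TTTCCCGC, in 1.39% of windows). A match describes letters in the sequence and is no evidence of binding.

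The libraries held between 3578 and 4327 cells and between 38927267 and 64524196 gene and transposable element (TE) counts. HCT116 DAC+SB was the shallowest, with a median of 8449 counts per cell against 15784.5 to 17369.5 in the others, and had the highest median mitochondrial share, 18.6% against 8.33% to 15.8%. Across the libraries, 131 cell barcodes occurred in more than 1 of them, at most 0.805% of a library's cells for any pair. Levels are counts per 1000000 gene and TE counts of a library (CPM). Markers of H1299, listed for this work, summed to 3389, 1665, 265 and 357 CPM, and markers of HCT116 to 0.403, 13.8, 110 and 74.8 CPM. Blood cell markers summed to between 0.255 and 8.48 CPM, with 7, 2, 4 and 0 of 9 listed markers at 0 and 183 counts of CD3D in the treated HCT116 library. The marker PTPRC had 0, 8, 0 and 5 counts.

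With the inhibitors, no restriction factor gene was 2-fold higher in either line, and a small group was at least 2-fold lower, with more of them in HCT116. From a minimum of 100 counts in the higher of both libraries, 6 of the 10 members could be read in H1299 and 7 in HCT116. In H1299, 0 of these were at least 2-fold higher, against 18.3% of all 14610 genes, and 1 (MOV10) was at least 2-fold lower, against 7.34% of all genes. In HCT116, 0 were at least 2-fold higher, against 16.2% of 13539 genes, and 3 (MOV10, APOBEC3C and ZC3HAV1) were at least 2-fold lower, against 20% of all genes. At a 4-fold threshold the members numbered 0 higher and 0 lower in H1299, against 11% and 0.349% of all genes, and 0 higher and 2 lower (MOV10 and APOBEC3C) in HCT116, against 9.63% and 3.69%. The median log2 ratio of DAC+SB over DMSO was -0.52 over the 6 members in H1299 and -0.62 over the 7 in HCT116, beside -0.07 and -0.23 over all genes. RNASEH2A in H1299, at 1.95-fold (1.41 to 2.71) higher under its own name, lies within counting error of 2-fold and passed it when TE counts were left out of the denominator. These counts are too small to set the members apart from other genes.

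**Figure D1:**
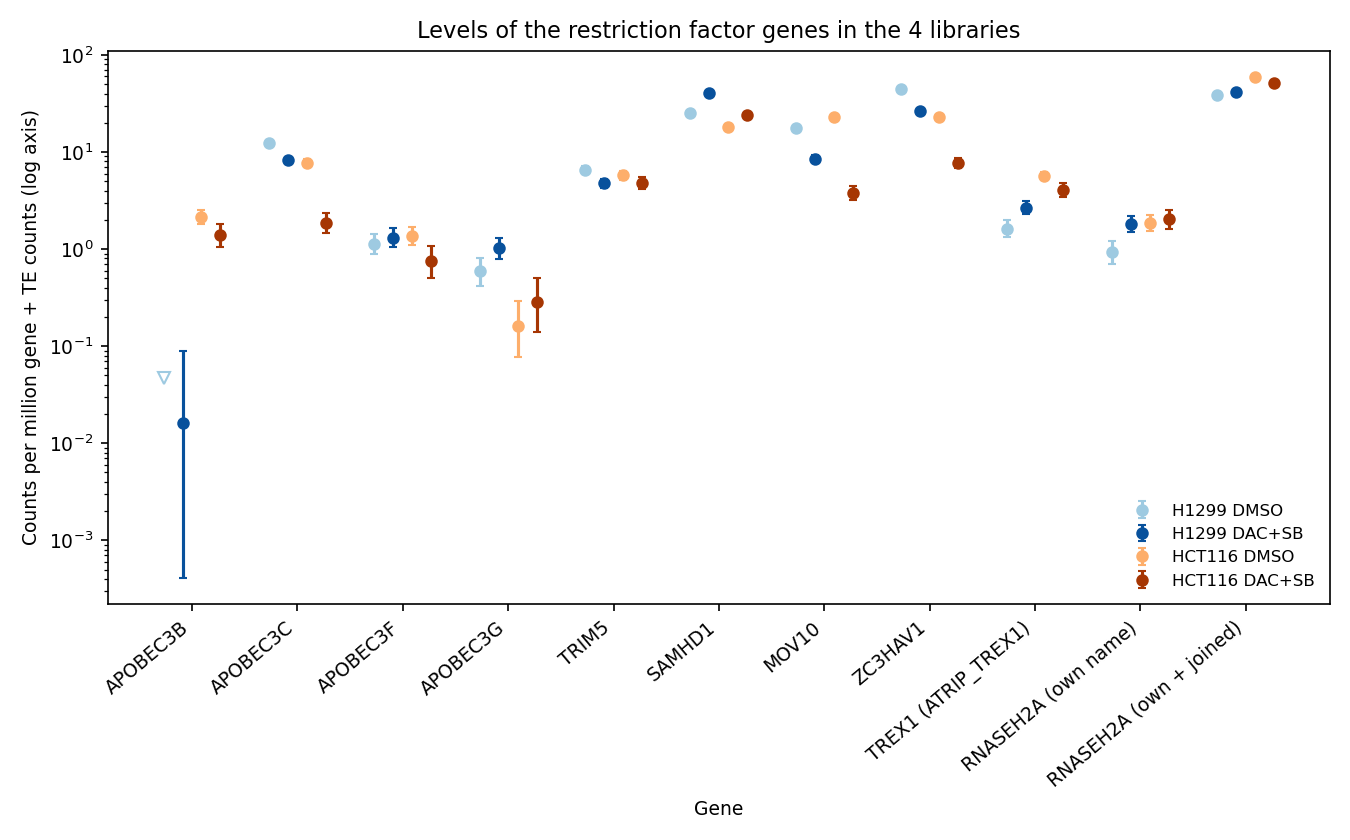
Level of each restriction factor gene in the 4 libraries, as counts per 1000000 gene and TE counts on a log axis. Points are library values, bars are exact 95% Poisson intervals (counting error only), and the open triangle marks 0 counts, placed at the level of 3 counts. MOV10, ZC3HAV1 and APOBEC3C are lowest in HCT116 DAC+SB, SAMHD1 is highest in H1299 DAC+SB, and APOBEC3B is near 0 in both H1299 libraries.

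MOV10 and ZC3HAV1, the RNA-binding restriction factors, were lower with DAC+SB in both lines. MOV10 (chromosome 1, 112673141 to 112700746 on GRCh38) had 1149 counts in untreated and 532 in treated H1299 cells, or 17.8 (16.8 to 18.9) and 8.52 (7.81 to 9.28) CPM. In HCT116 it had 1424 and 147 counts, or 22.7 (21.6 to 23.9) and 3.78 (3.19 to 4.44) CPM. Untreated HCT116 was highest, untreated H1299 next and treated HCT116 lowest, and the 4 intervals were separate. The level was 2.09-fold (1.88 to 2.32) lower with treatment in H1299 and 6.02-fold (5.08 to 7.18) lower in HCT116. The H1299 interval spans 2-fold, so its place past that threshold is within counting error.

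ZC3HAV1 (chromosome 7, 139043520 to 139109719) had 2845 counts in untreated and 1637 in treated H1299 cells, or 44.1 (42.5 to 45.7) and 26.2 (24.97 to 27.5) CPM. In HCT116 the counts were 1447 and 299, or 23.1 (21.9 to 24.3) and 7.68 (6.83 to 8.60) CPM. Both untreated libraries stood above the treated library of their line, and all 4 intervals were separate. ZC3HAV1 was 1.68-fold (1.58 to 1.79) lower with treatment in H1299 and 3.01-fold (2.65 to 3.42) lower in HCT116. The table lists a second, numbered feature of ZC3HAV1 only in HCT116 DAC+SB (45 counts) and of MOV10 only in HCT116 DMSO (148 counts), and such features have at least 10 counts wherever they are listed. Without them the HCT116 log2 ratio of ZC3HAV1 was -1.82 rather than -1.59, and that of MOV10 was -2.43 rather than -2.59.

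The APOBEC3 genes lie next to each other on chromosome 22 and encode related cytidine deaminases, and they did not share a pattern. APOBEC3B (chromosome 22, 38982347 to 38992804), whose protein is nuclear and mutates DNA in many tumours, was seen almost only in HCT116. It had 0, 1, 134 and 54 counts. The count of 0 allows up to 0.0465 CPM by 3 counts and 0.0572 CPM by the exact interval, and the HCT116 levels were 2.14 (1.79 to 2.53) and 1.39 (1.04 to 1.81) CPM. In HCT116 it was 1.54-fold (1.12 to 2.16) lower with treatment. From its feature without a number alone, with 98 and 43 counts, the log2 ratio was -0.50 (-1.05 to 0.03), an interval that includes 0. No treatment fold is given for H1299, where both libraries were below 3 counts.

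APOBEC3C (chromosome 22, 39014083 to 39020352), which encodes a small enzyme with a single deaminase domain, was lower with treatment in both lines. It had 791, 511, 481 and 73 counts. These are 12.3 (11.4 to 13.1), 8.19 (7.49 to 8.93), 7.68 (7.01 to 8.40) and 1.88 (1.47 to 2.36) CPM. Treated H1299 and untreated HCT116 overlapped, while treated HCT116 was below every other library. APOBEC3C was 1.498-fold (1.34 to 1.68) lower with treatment in H1299 and 4.09-fold (3.20 to 5.31) lower in HCT116.

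APOBEC3F and APOBEC3G, whose proteins are packaged into virions of HIV-1 lacking Vif, were near the lower end of detection. APOBEC3F (chromosome 22, 39040604 to 39053910) had 73, 82, 86 and 29 counts, or 1.13, 1.31, 1.37 and 0.745 CPM, and only untreated and treated HCT116 had separate intervals (1.10 to 1.70 and 0.499 to 1.07). Its log2 ratios of treated over untreated were 0.22 (-0.26 to 0.69) in H1299 and -0.88 (-1.54 to -0.26) in HCT116. APOBEC3G (chromosome 22, 39077005 to 39087743) had 38, 64, 10 and 11 counts, or 0.589, 1.03, 0.160 and 0.283 CPM, highest in treated H1299. Its log2 ratios were 0.80 (0.20 to 1.42) in H1299 and 0.82 (-0.55 to 2.22) in HCT116. A treatment difference of APOBEC3G in HCT116, and of APOBEC3F in H1299, was not detectable at this depth. Reads of these paralogues could be split or shared in counting, and nothing in the labels or file headers says how that was handled. Of the distinct 50-base words in the first 500 bases of annotated transcripts (GENCODE v29), 49.7% were shared with another gene for APOBEC3B, 31.4% for APOBEC3F, 20.1% for APOBEC3G and 3.84% for APOBEC3C. APOBEC3F and APOBEC3G shared 349 such words with each other, and APOBEC3B shared 154 with APOBEC3D and 101 with APOBEC3F. The separate values of these genes are therefore uncertain, those of APOBEC3B in H1299 included, whereas SAMHD1 shared 0.193% and MOV10 and ZC3HAV1 shared 0. For TRIM5 the share was 12.7%.

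SAMHD1, the deoxynucleotide hydrolase, had a higher level with treatment in H1299, and in HCT116 only when its numbered feature was counted. SAMHD1 (chromosome 20, 36889773 to 36951901) had 1642 counts in untreated and 2523 in treated H1299 cells, or 25.4 (24.2 to 26.7) and 40.4 (38.9 to 42.0) CPM. In HCT116 it had 1143 and 943 counts, which at the lower depth of the treated library are 18.2 (17.2 to 19.3) and 24.2 (22.7 to 25.8) CPM. Treated H1299 was highest, untreated H1299 and treated HCT116 overlapped, and untreated HCT116 was lowest. The treated level was 1.59-fold (1.49 to 1.69) higher in H1299 and 1.33-fold (1.22 to 1.45) higher in HCT116, below 2-fold in each. A numbered SAMHD1 feature was listed in HCT116 alone, with 170 counts in DMSO and 298 in DAC+SB, or 14.9% and 31.6% of the gene's counts. The feature without a number had 973 and 645 counts in HCT116, or 15.5 (14.6 to 16.5) and 16.6 (15.3 to 17.9) CPM, overlapping intervals. Its log2 ratio was 0.09 (-0.05 to 0.24), so the higher treated level of SAMHD1 in HCT116 rests on the numbered feature. That setting, features without a number only, was chosen after seeing the data.

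TRIM5, the capsid-binding factor whose promoter motif is printed above, differed little. TRIM5 (chromosome 11, 5663557 to 5938619) had 420 and 297 counts in H1299 and 360 and 186 in HCT116. Its levels were 6.51 (5.90 to 7.16) and 4.76 (4.23 to 5.33) CPM in H1299 and 5.75 (5.17 to 6.37) and 4.78 (4.12 to 5.52) CPM in HCT116. The level was 1.37-fold (1.18 to 1.59) lower with treatment in H1299 and 1.20-fold (1.00 to 1.44) lower in HCT116. Untreated H1299 and untreated HCT116 overlapped, as did treated and untreated HCT116, and the treated levels of both lines were alike. The numbered TRIM5 feature held 22.6% and 16.5% of the counts in H1299 but 46.7% and 51.6% in HCT116, so the lines differed in which TRIM5 feature was counted. From the feature without a number alone, TRIM5 was higher in H1299 than in HCT116, with log2 ratios of 0.72 (0.45 to 0.98) under DMSO and 0.78 (0.43 to 1.15) under DAC+SB.

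The nuclease genes TREX1 and RNASEH2A were listed mostly or wholly under joined names, and their values depend on that. TREX1 (chromosome 3, 48465811 to 48467645) lies inside the annotated span of ATRIP, a checkpoint gene, and 82.4% of the 50-base words of its transcript starts were shared, all of them with ATRIP. It had 0 counts under its own name in all 4 libraries. The joined name ATRIP_TREX1 had 105 counts in untreated and 167 in treated H1299 cells, or 1.63 (1.33 to 1.97) and 2.68 (2.28 to 3.11) CPM. In HCT116 it had 355 and 159 counts, or 5.67 (5.09 to 6.29) and 4.08 (3.47 to 4.77) CPM. All 4 intervals were separate, with both HCT116 libraries above both of H1299. The joined level was 1.64-fold (1.28 to 2.12) higher with treatment in H1299 and 1.39-fold (1.15 to 1.68) lower in HCT116, and which of the overlapping genes gave the counts cannot be told apart. Its numbered feature was not listed in untreated H1299 and had 48 counts in treated H1299, and the feature without a number had 105 and 119 counts in H1299 and 152 and 72 in HCT116. Its log2 ratios were 0.23 (-0.16 to 0.62) and -0.39 (-0.82 to 0.02), intervals that include 0. Between the treated lines, H1299 over HCT116, it was at 0.04 (-0.39 to 0.49), so the order of the treated libraries turned on the numbered feature.

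RNASEH2A (chromosome 19, 12806556 to 12815201) had between 2.42% and 4.31% of its counts under its own name, the rest being joined with a gene called CTD-2265O21.8. Of the 50-base words of its transcript starts, 55.2% were shared, all with the gene THSD8, so every RNASEH2A value, those between groups of cells included, is uncertain in the same way. Under its own name it had 60 and 113 counts in H1299 and 117 and 79 in HCT116, with log2 ratios of 0.96 (0.50 to 1.44) and 0.12 (-0.31 to 0.54). In H1299 the RNASEH2A feature without a number had 48 counts untreated and 61 treated, and its log2 ratio was 0.39 (-0.18 to 0.97), an interval that includes 0. With the joined name added the counts were 2483, 2620, 3687 and 1998. The levels were then 38.5 (37.0 to 40.03) and 42.0 (40.4 to 43.6) CPM in H1299 and 58.9 (57.0 to 60.8) and 51.3 (49.1 to 53.6) CPM in HCT116, 4 separate intervals. So counted, RNASEH2A was 1.09-fold (1.03 to 1.15) higher with treatment in H1299 and 1.15-fold (1.09 to 1.21) lower in HCT116. Under its own name the HCT116 interval includes 0, so no direction is read from it. Most counts of the joined name lay in its numbered feature, with 1574 and 1969 counts in H1299 and 2581 and 1624 in HCT116, beside 849 and 538 and 989 and 295 in the feature without a number. From features without a number, own and joined, RNASEH2A was lower with treatment in both lines, 1.45-fold (1.31 to 1.61) in H1299 and 1.91-fold (1.69 to 2.16) in HCT116, so its direction in H1299 turns on the numbered features.

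**Figure D2:**
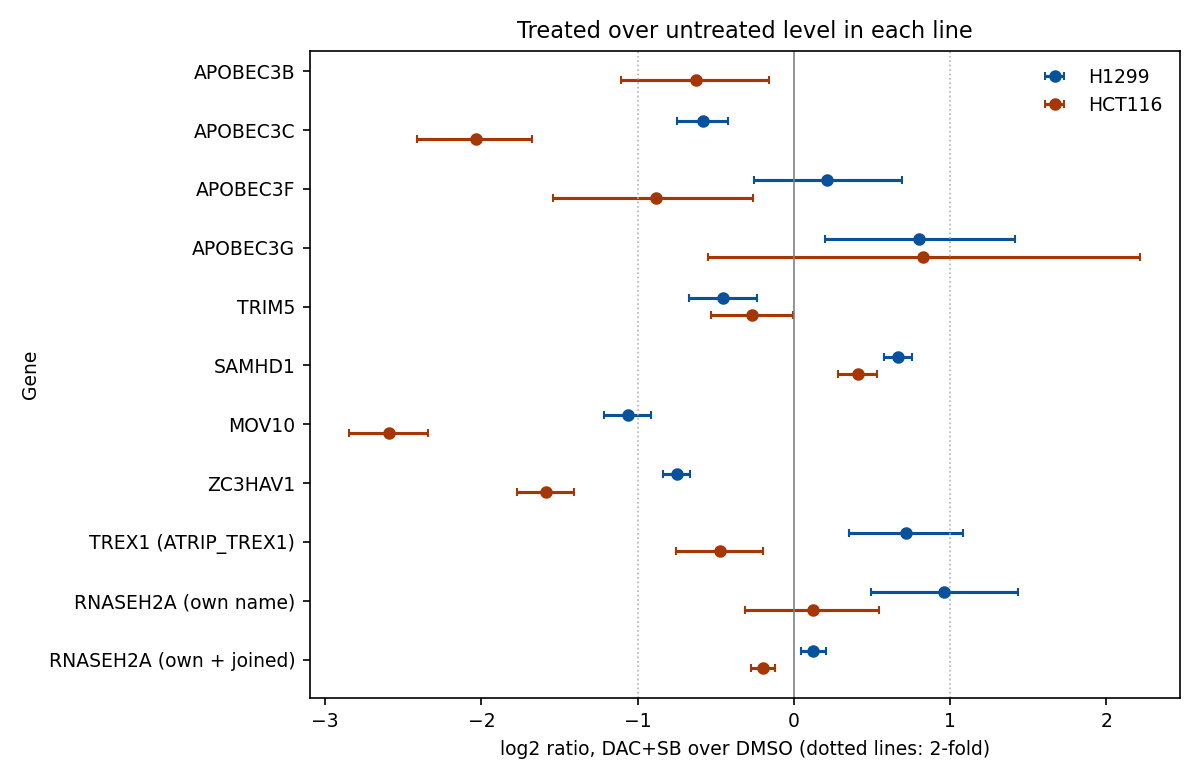
Log2 ratio of the DAC+SB level over the DMSO level in H1299 (blue) and HCT116 (brown) for each restriction factor gene; bars are exact conditional binomial 95% intervals (counting error only) and dotted lines mark 2-fold. HCT116 lies left of H1299 for APOBEC3C (-2.03 against -0.58), MOV10 (-2.59 against -1.06) and ZC3HAV1 (-1.59 against -0.75), SAMHD1 lies right of 0 in both lines (in HCT116 at 0.09 without its numbered feature, which is not drawn), and no APOBEC3B value is drawn for H1299.

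Several members differed more with treatment in HCT116 than in H1299. All genes together also had lower ratios in HCT116, with a median of -0.23 against -0.07 and a lower quartile of -0.85 against -0.51. The difference between the lines was not computed over all genes, so the members cannot be set apart from them. The log2 ratio in H1299 minus that in HCT116 was 1.53 (1.24 to 1.81) for MOV10, 1.45 (1.06 to 1.84) for APOBEC3C, 1.10 (0.34 to 1.86) for APOBEC3F and 0.84 (0.64 to 1.04) for ZC3HAV1, with intervals from a normal approximation to the log of the counts. For SAMHD1 it was 0.26 (0.11 to 0.41), the ratio being larger in H1299. Leaving out its numbered feature put the HCT116 ratio of SAMHD1 at 0.09, beside 0.67 for H1299. RNASEH2A under its own name also had the larger ratio in H1299, with a difference of 0.84 (0.23 to 1.45). Own-name counts were at most 4.31% of that gene's counts in a library, and with the joined name the difference was 0.32 (0.21 to 0.43). Leaving out the numbered own-name feature, the H1299 ratio of RNASEH2A was 0.39 (-0.18 to 0.97). The HCT116 ratio was then -0.08 (-0.56 to 0.39), and both intervals include 0. Differences between the lines were not computed without numbered features. For TRIM5 the difference was -0.19 (-0.52 to 0.15) and for APOBEC3G -0.02 (-1.39 to 1.34), intervals that include 0. HCT116 DAC+SB was also the library with the lowest depth per cell, the highest mitochondrial share and the highest TE share (5.56%, against 3.09% in treated H1299 and 0.199% and 0.319% untreated), and the part of these in the difference was not tested.

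Under DMSO the lines already differed in their restriction factor genes. APOBEC3B and RNASEH2A were lower in H1299, and ZC3HAV1, APOBEC3C and SAMHD1 were higher there by less than 2-fold. APOBEC3G, at 38 against 10 counts and so below the count minimum, was 3.69-fold (1.804 to 8.30) higher in H1299. Of 7 members past the count minimum, 0 were at least 2-fold higher in H1299 than in HCT116, against 20.5% of 13796 genes, and 2 were at least 2-fold lower, against 15.2%. At 4-fold these were 0 higher, against 9.92% of genes, and 1 lower (APOBEC3B), against 8.11%. APOBEC3B was at least 46.0-fold lower in H1299, a bound set at 3 counts. RNASEH2A under its own name, at 60 against 117 counts, was 2.01-fold (1.46 to 2.79) lower, so its place past 2-fold is within counting error. With the joined name it was 1.53-fold (1.45 to 1.61) lower, or 1.25-fold (1.15 to 1.37) from features without a number. ZC3HAV1 was 1.91-fold (1.79 to 2.03) higher in H1299, APOBEC3C 1.60-fold (1.42 to 1.79) and SAMHD1 1.39-fold (1.29 to 1.51), while MOV10 was 1.28-fold (1.18 to 1.38) lower. The ATRIP_TREX1 name was 3.48-fold (2.79 to 4.37) lower in H1299, or 1.49-fold (1.16 to 1.93) without its numbered feature, and TRIM5 had a log2 ratio of 0.18 (-0.03 to 0.39).

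Among members past the count minimum, the contrast between the lines was larger with DAC+SB than under DMSO for APOBEC3C, ZC3HAV1, MOV10 and, to a smaller extent, SAMHD1. Of 6 members past the count minimum, 3 were at least 2-fold higher in H1299 than in HCT116, against 25.4% of 14875 genes, and 0 were at least 2-fold lower, against 12.1%. At 4-fold these were 1 higher (APOBEC3C), against 8.97%, and 0 lower, against 4.65%. The 3 were APOBEC3C at 4.36-fold (3.41 to 5.66), ZC3HAV1 at 3.41-fold (3.02 to 3.87) and MOV10 at 2.26-fold (1.88 to 2.73). SAMHD1 was 1.67-fold (1.55 to 1.8) higher in H1299, a log2 ratio of 0.74 that became 1.29, past 2-fold, when its numbered feature, listed in HCT116 alone, was left out. TRIM5 had a log2 ratio of -0.01 (-0.28 to 0.27), and APOBEC3G, at 64 against 11 counts, was 3.63-fold (1.90 to 7.63) higher in H1299. APOBEC3F, at 82 against 29 counts, had a log2 ratio of 0.82 (0.19 to 1.48), beside -0.28 (-0.75 to 0.19) under DMSO. APOBEC3B, at 1 count against 54, was 86.6-fold lower in H1299 with an interval of 14.9 to 3483. MOV10 thus changed sides, lower in H1299 than in HCT116 under DMSO and higher under DAC+SB. These comparisons use the same libraries as the treatment ratios and add no independent evidence. The median log2 ratio of H1299 over HCT116 over all genes was 0.11 under DMSO and 0.29 under DAC+SB, and other scalings gave values down to -0.03 and 0.12, with every member on the same side of 0.

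The shares of cells with a count had the same order as the levels within each line for the genes given here, apart from RNASEH2A. Each cell was thinned at random to 3300 counts, which left out 402 HCT116 DAC+SB cells that were shallower, and exact Clopper-Pearson intervals are given. MOV10 had a count in 5.90% (5.15 to 6.72) of untreated and 2.58% (2.09 to 3.14) of treated H1299 cells, and in 6.48% (5.70 to 7.33) and 1.15% (0.837 to 1.53) in HCT116. ZC3HAV1 had a count in 13.7% (12.6 to 14.8) and 8.78% (7.89 to 9.73) of H1299 cells and in 7.08% (6.27 to 7.96) and 2.42% (1.96 to 2.95) of HCT116 cells. SAMHD1 had a count in 8.66% (7.76 to 9.63) and 12.2% (11.2 to 13.3) of H1299 cells and in 5.39% (4.68 to 6.17) and 7.11% (6.32 to 7.96) of HCT116 cells, its numbered feature included. For each of these genes the treated and untreated intervals of a line did not overlap. APOBEC3C had a count in 4.44% and 2.84% of H1299 cells and in 2.35% and 0.510% of HCT116 cells, and TRIM5 in 2.01% and 1.15% and in 1.67% and 1.38%. RNASEH2A with the joined name had a count in 12.1% and 11.3% of H1299 cells, an order opposite to that of its levels and not read here, and in 17.5% and 14.5% of HCT116 cells. Under its own name the share in HCT116 was 0.656% and 0.561%, again opposite to the levels and not read.

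Without thinning the shares were larger, and lowest in the shallow treated HCT116 library for these genes. For MOV10 they were 24.1%, 11.8%, 26.9% and 3.004%, where the median depth was 17369.5, 15784.5, 16257.5 and 8449 counts. They were 48.3%, 30.8%, 25.4% and 5.92% for ZC3HAV1 and 33.1%, 43.0%, 22.7% and 17.6% for SAMHD1. SAMHD1 in HCT116 thus had a smaller share with treatment before thinning and a larger one after it. No cell type that lacks these genes was analysed here, and the share from free RNA was not measured. APOBEC3B had a count in 0 of 3578 H1299 DMSO cells, which allows a share of up to 0.0838% by 3 counts and 0.103% by the exact interval. That limit covers cells with a count at this depth, not cells that express the gene. No single cell held more than 0.636% of the counts of SAMHD1 or more than 2.04% of those of MOV10 in a library.

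**Figure D3:**
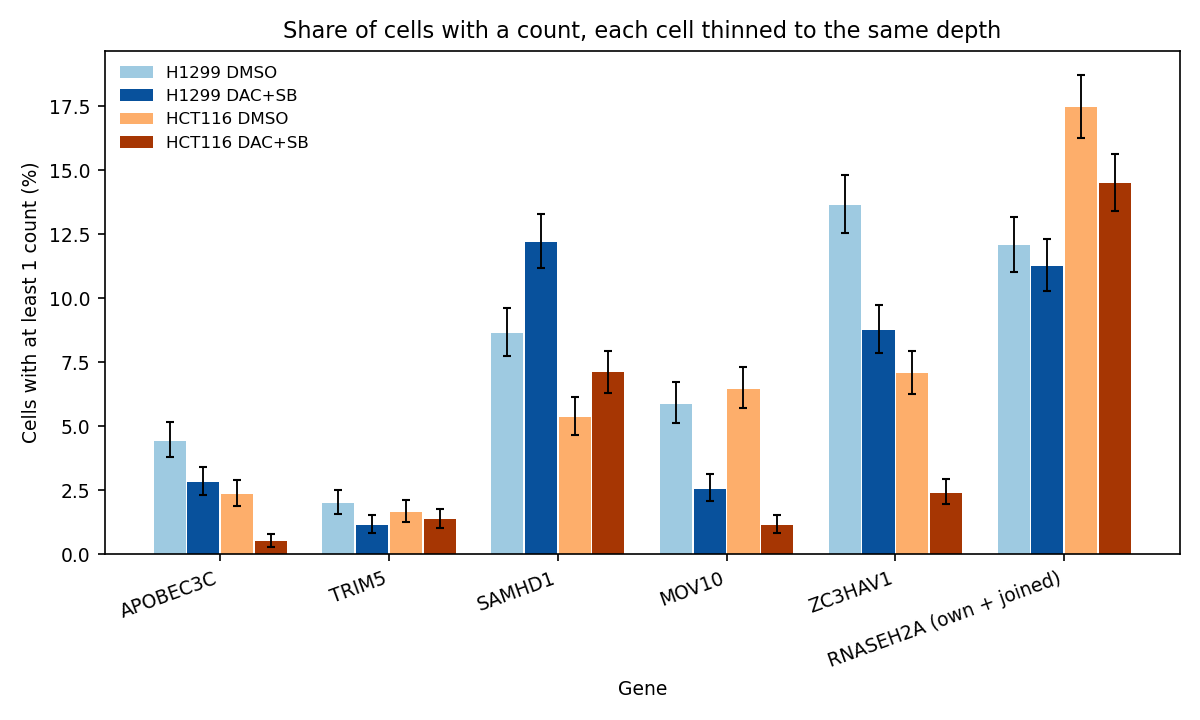
Percent of cells with at least 1 count of a gene in the 4 libraries after each cell was thinned to 3300 counts; bars start at 0 and error bars are exact Clopper-Pearson 95% intervals. The MOV10, ZC3HAV1 and APOBEC3C bars are lower with DAC+SB in both lines and lowest in HCT116 DAC+SB (1.15%, 2.42% and 0.510%), and the SAMHD1 bars, which include its numbered feature in HCT116, are higher with DAC+SB in both lines.

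Few cells held counts of several members at once at this depth. The mean number of the 10 genes with a count, under their own names, was 0.355, 0.291, 0.248 and 0.139 per thinned cell. The share of cells with none of them was 68.9%, 74.0%, 77.4% and 86.9%. Cells with 2 or more made up 4.02%, 2.98%, 2.13% and 0.764%. The order of the libraries was the same in all of these measures, from untreated H1299 with most to treated HCT116 with fewest. Own names leave out TREX1 and most counts of RNASEH2A. With joined names the thinned shares of these genes were highest in untreated HCT116, at 1.78% and 17.5%. The measures were not made with joined names, so the order holds for own names only. Without thinning, the mean was 1.38, 1.11, 1.02 and 0.355.

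Within a treated library, SAMHD1 was lower in the cells with the largest TE share. Cells of each library were ranked by the TE share of their counts, and the lowest and highest 25% (895 to 1082 cells each) were summed. SAMHD1 went from 45.7 (42.4 to 49.1) CPM in the lowest to 33.7 (30.9 to 36.7) in the highest 25% of treated H1299 cells, a log2 ratio of -0.44 (-0.60 to -0.28). In HCT116 DAC+SB it went from 30.3 (27.1 to 33.7) to 15.8 (13.3 to 18.7) CPM, a log2 ratio of -0.94 (-1.23 to -0.65). In the untreated libraries the intervals overlapped, at 24.5 and 27.0 CPM in H1299 and 17.8 and 18.9 CPM in HCT116. TE counts are part of the total, and the median over genes with enough counts was -0.19 in H1299 DAC+SB and -0.28 in HCT116 DAC+SB, with 10th percentiles of -0.61 and -0.72. The HCT116 value of SAMHD1 thus lay below the 10th percentile of genes, with an interval that spans it, and the H1299 value did not. All rankings of cells counted numbered features, which held 31.6% of the SAMHD1 counts in treated HCT116, and none was made without them. In treated HCT116 these groups of cells also differed in median depth (9986.5 counts in the lowest, 7414 in the highest) and mitochondrial share (16.7% and 19.7%), and the summed S phase genes went from 695 to 576 CPM there and from 798 to 483 CPM in treated H1299; the part of these was not tested.

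MOV10 and ZC3HAV1 did not show that pattern in HCT116 DAC+SB. Their log2 ratios between the same groups were 0.38 (-0.31 to 1.07) and 0.22 (-0.28 to 0.72), from 37 and 38 counts and from 73 and 67 counts. In H1299 DAC+SB they were -0.45 (-0.82 to -0.09) for MOV10 and -0.12 (-0.32 to 0.09) for ZC3HAV1. SAMHD1 was not the lowest member in either library. APOBEC3C had 24 counts in the low and 6 in the high TE group of treated HCT116, a value of -1.66 (-3.24 to -0.33), and in treated H1299 it had 151 and 102, at -0.53 (-0.91 to -0.16). TRIM5 was at -0.58 (-1.06 to -0.11) in treated H1299 and -0.35 (-0.97 to 0.25) in treated HCT116. RNASEH2A with the joined name was lower in the high TE group of all 4 libraries, with log2 ratios of -0.35 (-0.51 to -0.19), -0.58 (-0.74 to -0.43), -0.28 (-0.41 to -0.14) and -0.40 (-0.58 to -0.21). The 10th percentiles of genes were -0.23, -0.61, -0.16 and -0.72, so the untreated values lay below them and the treated values did not. Only the treated HCT116 interval did not span its percentile.

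RNASEH2A differed between cells rich and poor in S phase transcripts. RNase H2 removes ribonucleotides from replicated DNA, and cells were ranked by the summed share of 15 S phase and replication genes, RNASEH2A not among them. With the joined name, RNASEH2A went from 17.2 (15.1 to 19.4) CPM in the lowest to 61.6 (57.8 to 65.6) CPM in the highest 25% of treated H1299 cells, a log2 ratio of 1.84 (1.64 to 2.05). It went from 38.5 to 61.7 CPM in HCT116 DAC+SB, a log2 ratio of 0.68 (0.48 to 0.88). The DMSO libraries had smaller ratios, 0.36 (0.19 to 0.53) in H1299 and 0.41 (0.27 to 0.55) in HCT116. Their groups were also a smaller fold apart in S phase transcripts, summed to 525 and 2087 CPM in H1299 and 635 and 2112 CPM in HCT116. The treated groups had 123 and 1310 CPM and 154 and 1211 CPM, and the part of this in the ratios was not tested. Under its own name, with 10 to 50 counts a group, RNASEH2A had ratios of -0.63 (-1.94 to 0.62), 1.501 (0.66 to 2.41), 1.60 (0.53 to 2.79) and 0.69 (-0.28 to 1.70), so the larger ratio with treatment was not seen in HCT116 there. The 90th percentile over genes was 0.53, 0.86, 0.45 and 0.64, so RNASEH2A with the joined name was above it in both treated libraries and below it in both untreated libraries. Both HCT116 intervals span that percentile. The level of RNASEH2A in the S phase-rich cells was close in H1299 DAC+SB and both HCT116 libraries, and the H1299 DAC+SB cells poor in S phase transcripts had the lowest level of all.

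Some other members also differed with the S phase share, in some libraries. In HCT116 DMSO, MOV10 had a log2 ratio of 0.56 (0.34 to 0.79) and ZC3HAV1 of 0.62 (0.40 to 0.84) between these groups, both above the 90th percentile of genes in that library, which both intervals span. ATRIP_TREX1 there had 55 and 110 counts, a log2 ratio of 0.97 (0.49 to 1.46). In H1299 DMSO, MOV10 and ZC3HAV1 were at 0.10 (-0.14 to 0.34) and 0.37 (0.22 to 0.53). With treatment they were at 0.31 and 0.20 in H1299 and at 0.36 and 0.11 in HCT116, and all of these intervals include 0. SAMHD1 was at 0.45 (0.29 to 0.62) in H1299 DAC+SB and 0.40 (0.12 to 0.68) in HCT116 DAC+SB, beside gene medians of 0.23 and upper quartiles of 0.53 and 0.42, so both values lie below the upper quartile of genes. Under DMSO SAMHD1 was at -0.01 in H1299 and 0.19 in HCT116, with intervals that include 0. TRIM5 went the other way in HCT116 DAC+SB, with 44 and 29 counts and a log2 ratio of -0.76 (-1.49 to -0.05). Median depths of the lowest and highest groups were 14981 and 16642 counts in treated H1299 and 7279.5 and 8226.5 in treated HCT116.

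**Figure D4:**
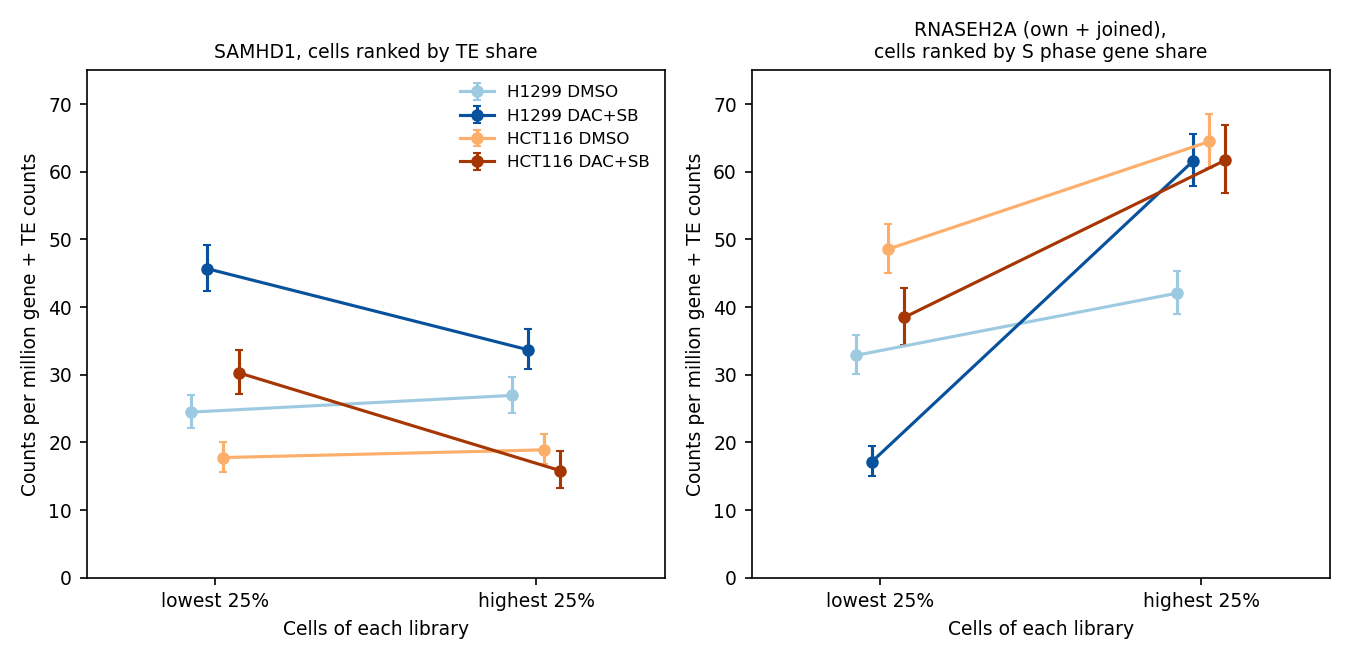
Level of SAMHD1 in the 25% of cells with the lowest and the highest TE share (left) and of RNASEH2A, own and joined names, in the 25% with the lowest and the highest share of S phase gene counts (right), in counts per 1000000 with exact 95% Poisson intervals. SAMHD1, its numbered feature in HCT116 included, goes from 30.3 to 15.8 in treated HCT116 cells, its intervals overlap in the DMSO libraries, and RNASEH2A is steepest in H1299 DAC+SB (17.2 to 61.6).

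When cells were ranked instead by 15 interferon response genes, SAMHD1 did not differ beyond counting error in the treated libraries. Its log2 ratio between the highest and lowest 25% was 0.02 (-0.15 to 0.18) in H1299 DAC+SB and -0.07 (-0.36 to 0.21) in HCT116 DAC+SB. In HCT116 DMSO it was 0.41 (0.15 to 0.66), while APOBEC3C there was at 0.47 (0.09 to 0.85). ATRIP_TREX1, a joined name with 65 and 96 counts in these groups, was at 0.54 (0.07 to 1.01). These values lay above the 90th percentile of genes in that library, 0.25, but each interval spans that percentile. RNASEH2A with the joined name was at 0.39 (0.22 to 0.56) in H1299 DAC+SB, an interval that spans the 90th percentile there, 0.35. Gene medians in this ranking were 0.06, 0.05 and 0.05 in the first 3 libraries and near 0 in treated HCT116. TRIM5, with the interferon motif printed above, was between -0.36 and 0.34 in the 4 libraries, and all of its intervals included 0. This ranking rests on few counts per cell. The median share of the 15 genes in the lowest 25% was 0% in both DMSO libraries, 0.00535% in treated H1299 and 0.00856% in treated HCT116. Such a ranking separates cells poorly, so values near 0 are not read further. In treated H1299 the groups also differed in median depth (13980 and 16259.5 counts) and mitochondrial share (10.7% and 8.57%), whose part was not tested.

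Genes that work with the members were described from lists fixed for this work. For RNase H2 and nucleic acid clearance, 8 of 9 genes had enough counts in each line, of which 2 were 2-fold lower and 0 higher in H1299. In HCT116 3 were lower and 1 was higher. Over all genes, 7.34% were lower and 18.3% higher in H1299 and 20% lower and 16.2% higher in HCT116, shares against which the counts of every list below are to be read. The medians were -0.30 and -0.71. The other subunits of RNase H2 parted ways, as RNASEH2B had log2 ratios of -1.01 in H1299 and -1.69 in HCT116 and RNASEH2C of 0.46 and 1.34. ADAR, which edits double-stranded RNA, was at -0.71 and -1.66, and PNPT1, a mitochondrial RNA nuclease, at -1.17 and -0.92. SKIV2L, an RNA helicase of the exosome, was at 0.76 and 0.21, and DNASE2, a lysosomal nuclease, at 0.04 and 0.35. The other gene 2-fold lower in HCT116 was LSM11, a histone RNA processing factor, at -1.11.

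Cofactors of ZAP and MOV10 had ratios below those of all genes at the median. Of 12 names listed, 9 were found. RIPLET, TUT4 and TUT7, which were not, are second names of the listed RNF135, ZCCHC11 and ZCCHC6, so no gene was missing. In H1299 0 of the 9 were 2-fold higher and 0 lower, with a median of -0.42. In HCT116 0 were higher and 2 lower, close to the 20% of all genes, with a median of -0.71. The 2 were RNF135, at -0.96 in H1299 and -2.84 in HCT116, and TRIM25, at -0.84 and -1.20; both are ubiquitin ligases, and TRIM25 is a known partner of ZAP. N4BP1, an endonuclease linked to ZAP, was at -0.20 and -0.22, and the uridylyltransferase gene ZCCHC6 at -0.24 and 0.64.

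Restriction genes known as interferon-inducible split in both directions. In H1299, 8 of 16 had enough counts, 2 being 2-fold higher and 2 lower, and in HCT116 10 did, 3 being higher and 2 lower, with medians of 0.02 and -0.23. BST2, which tethers budding virions, was at 2.24 and 1.74, and ISG20, an exonuclease, at 2.34 and 1.21. EIF2AK2, the RNA-activated kinase PKR, was at -1.33 and -2.77 and OAS3, which makes the activator of RNase L, at -1.07 and -1.90. The other gene 2-fold higher in HCT116 was IFITM1, a membrane protein that blocks virus entry, at 2.79. Below the minimum, IFITM1 in H1299, with 5 and 71 counts, was at 3.88 (2.59 to 5.54). MX1 was at 1.57 (0.69 to 2.52) and 1.64 (0.76 to 2.58), and MX2 in HCT116 at 3.01 (1.60 to 4.75). No gene of this list below the minimum had an interval wholly below 0. Of the interferon response genes, 9 of 15 had enough counts in each line, 5 being 2-fold higher and 0 lower in each, with medians of 1.14 and 1.09. They were ISG15, IFI6, IFI27, IFIT1 and IRF7 in both lines, from 1.14 to 3.06 in H1299 and from 1.09 to 3.94 in HCT116, where 18.3% and 16.2% of all genes were 2-fold higher. Of the genes with 100 counts, the lowest were the RNA sensor genes DDX58, at -0.23 and -0.01, and IFIH1, at -0.18 and -0.20. Below that minimum, the H1299 counts of IFIT2 were 46 and 18, at -1.31 (-2.18 to -0.49), and those of IFIT3 were 48 and 14, at -1.73 (-2.70 to -0.85). IRF9, with 41 and 22 counts, was at -0.85 (-1.67 to -0.07). IFI44 went the other way, with 6 and 23 counts at 1.99 (0.65 to 3.57), and IFI44L had 0 and 9. In HCT116 the intervals of IFIT2, IFIT3, IRF9 and IFI44 include 0. Among other retrovirus restriction genes, 0 of 9 were 2-fold higher and 2 lower in H1299, and 0 of 8 higher and 1 lower in HCT116, with TRIM38 at -2.03 and -2.28 and APOL6 at -2.27 in H1299. SMC5 was at -0.46 and -0.52, MARCH8 at -0.34 and -0.62 and TRIM21 at -0.39 and 0.25. SERINC3 and SERINC5, whose proteins lower the infectivity of virions, were at 0.13 and 0.06 and at 0.32 and 0.35.

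Genes of deoxynucleotide synthesis, the opposite activity to SAMHD1, had low ratios. Of 8 such genes, 2 were at least 2-fold lower in H1299 and 5 in HCT116, 0 were higher in either line, and the medians were -0.62 and -1.32. Over all genes 7.34% and 20% were lower, so that HCT116 had more such calls there too. Thymidylate synthase, TYMS, was at -1.38 and -2.56, and the deaminase gene DCTD at -1.08 and -2.01. The others 2-fold lower in HCT116 were RRM1, DCK and DUT, from -1.48 to -1.24. RRM2B was at -0.47 and -0.33 and the thymidine kinase gene TK1 at 0.08 and -0.04. The S phase and replication list, which shares TYMS and RRM2 with it, had 9 of 15 genes 2-fold lower and 0 higher in each line, with medians of -1.09 and -1.32, and its summed level went from 1288 to 638 CPM in H1299 and from 1321 to 639 CPM in HCT116. In it UNG was at -2.41 and -2.56, MCM3 at -1.65 and -1.56, FEN1 at -0.27 and 0.55 and SLBP at 0.32 and 0.15. Of 12 mitosis genes, 0 were 2-fold lower in H1299 and 6 in HCT116, 0 were higher, and the medians were -0.57 and -1.03. CCNB2 was at -0.70 and -1.31, PLK1 at -0.63 and -1.55, CENPF at -0.65 and -1.20, CDK1 at -0.25 and -0.54, CCNB1 at -0.15 and -0.48 and BUB1 at -0.63 and -0.43. The part of this shift in the values of the restriction factor genes was not tested.

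**Figure D5:**
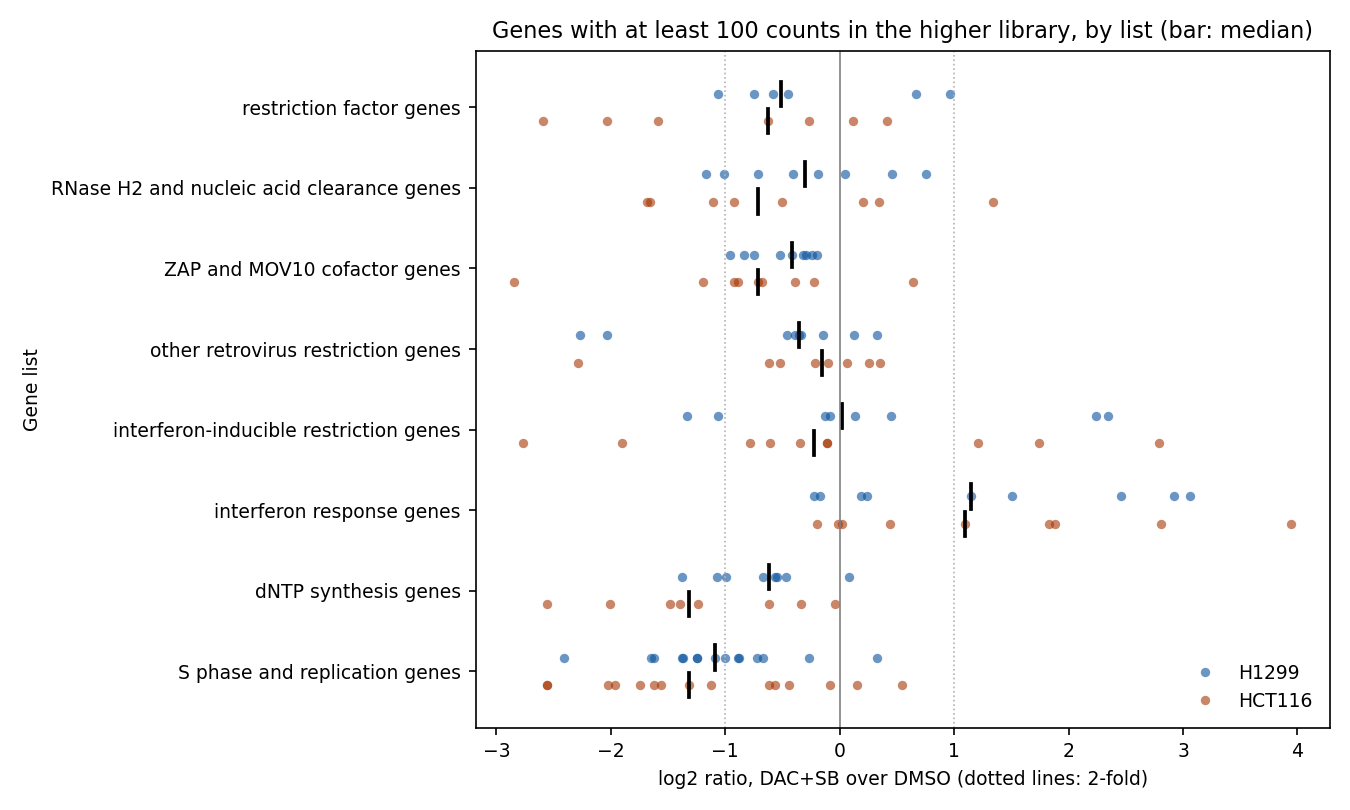
Log2 ratio of DAC+SB over DMSO for each gene past the minimum of 100 counts, by gene list, in H1299 (blue) and HCT116 (brown), with a black bar at the list's median. The restriction factor genes have medians of -0.52 and -0.62, the interferon response genes 1.14 and 1.09, and the S phase and replication genes -1.09 and -1.32.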

How the data were processed

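The 4 libraries of 5′ single-cell RNA sequencing, 1 per line and treatment, were analysed from 2 deposited tables, 1 of genes and 1 of TE loci. The deposited values are whole-number counts per feature and cell, per the file headers and the values themselves. STAR, CASAVA and the build GRCh38 (hg38) are named, per the submitters' processing notes. Left unstated are the counting tool, its annotation and strand setting, the cell filter and whether unique molecules were counted (not given in the sources used). Nothing states that groups came from separate cultures. Samples were grouped by their titles. For each library the counts of a gene were added up over cells and set against all gene and TE counts of that library. No cell was filtered out and no doublet caller was run. The 10 members and all gene lists were chosen with earlier results of these data known. From each pathway list, the 2 genes with the highest and the 2 with the lowest ratio per line among genes with 100 counts in the higher library of both lines were named, while line markers are given as sums. LSM11, IFITM1, MX1, MX2, ISG15, IFI6, IFIT2, IFIT3, IRF9, IFI44, IFI44L, APOL6, RRM1, DCK, DUT and the blood markers were added after their values were seen. A gene counted as past 2-fold from 100 counts in the higher library. For these calls, and for medians and percentiles over genes, counts below 3 were set to 3. In the printed ratio of a single gene only a count of 0 was. Python 3.11.15, scipy 1.17.1 and numpy 2.4.6 were used, and TMM (edgeR 4.0.16) and median-of-ratios (DESeq2 1.42.0) factors, computed from the deposited counts, served as alternative scalings only. Interval code was tested on simulated data. Total counts per library, 38927267 to 64524196, set the precision of every level, and intervals cover counting error only. Alternatives were the denominator, scaling, joined names, numbered features, cell filters, the mean over cells, the fold and the count minimum.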

Additional observations from a re-analysis of the deposited data

Results flagged for a closer look

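The joined names that hold the 2 nuclease genes went in opposite directions in the lines when numbered features were counted, and which gene of a joined name gave the counts cannot be told apart. The difference between the lines was not tested, since each group is 1 library. For TREX1, counted through ATRIP_TREX1, the log2 ratio of DAC+SB over DMSO was 0.72 in H1299 and -0.47 in HCT116, a difference of 1.19 (0.75 to 1.63, from a normal approximation to the log of the counts). For RNASEH2A with its joined name it was 0.13 in H1299 and -0.20 in HCT116, a difference of 0.32 (0.21 to 0.43, by the same approximation). From features without a number, a setting chosen after seeing the data, opposite directions were not seen beyond counting error. RNASEH2A was then lower with treatment in both lines, at -0.53 (-0.69 to -0.38) and -0.93 (-1.11 to -0.76), and ATRIP_TREX1 was at 0.23 (-0.16 to 0.62) and -0.39 (-0.82 to 0.02), intervals that include 0.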

How the results depend on the processing

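Each line gave only 1 pair of treated and untreated libraries, and no paired analysis was run. Because each group is 1 library, no replicate could be left out. The number of members at least 2-fold higher with DAC+SB in H1299 was 1 (RNASEH2A) in place of 0 with gene counts only as denominator. The number at least 2-fold lower in H1299 than in HCT116 under DMSO was 1 (RNASEH2A) in place of 2 when numbered features were kept only where listed in both libraries, since APOBEC3B then had 98 counts against 0 and missed the minimum of 100 while still at least 33.6-fold lower, and the number at least 2-fold higher in H1299 under DAC+SB was then 4 in place of 3, SAMHD1 being added. With a 4-fold threshold, 0 members were lower with DAC+SB in H1299, 1 was lower in H1299 than in HCT116 under DMSO and 1 was higher in H1299 under DAC+SB. Over the alternatives, the log2 ratio of DAC+SB over DMSO ranged in H1299 and HCT116 from -1.11 to -1.02 and from -2.64 to -2.43 for MOV10, from -0.80 to -0.71 and from -1.82 to -1.48 for ZC3HAV1, from -0.63 to -0.42 and from -2.32 to -1.96 for APOBEC3C, and from 0.62 to 0.71 and from 0.09 to 0.49 for SAMHD1. The lowest SAMHD1 value in HCT116 came from features without a number only, an alternative added after seeing the data. Under it APOBEC3B again missed the minimum, so that the members 2-fold lower in H1299 under DMSO numbered 1, and the median member log2 ratio in HCT116 was -1.12 over 6 members, but -0.50 over the same 7 as the main value of -0.62. For RNASEH2A under its own name, with the joined name added as 1 of the alternatives, the log2 ratio ranged from 0.13 to 1.00 and from -0.20 to 0.23, the lower ends with the joined name added. With the joined name it ranged from -0.53 to 0.13 and from -0.93 to -0.20, the lower ends from features without a number only. Requiring 20 rather than 100 counts raised the share of all genes at least 2-fold higher to 28.4% in H1299 and 26.9% in HCT116, and requiring 1 count lowered the share at least 2-fold lower in HCT116 to 9.95%. RNASEH2A in HCT116 changed sign with the joined name, from 0.12 (-0.31 to 0.54) to -0.20 (-0.28 to -0.12). Values near 0 also changed sign, those of APOBEC3F in H1299 (-0.01 with numbered features only where listed in both) and of TRIM5 between the treated lines (0.00 with joined names, 0.02 without cells above 25% mitochondrial counts). With features without a number only, TRIM5 between the treated lines was 0.78 and RNASEH2A in HCT116 -0.08, and with joined names RNASEH2A was -0.53 in H1299 and 0.073 between the treated lines and TREX1 0.043 there. The cause of the other moves was not tested.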

Other observations

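Relatives of the members outside the set, chosen after their values were seen, were also listed. MOV10L1, the germ cell paralogue of MOV10 that takes part in piRNA formation, had 1 count in H1299 DMSO and 0 in HCT116 DMSO under its feature without a number, against 104 in H1299 DAC+SB and 62 in HCT116 DAC+SB. Its numbered features, listed in the treated libraries alone, had 24 and 66 counts in H1299 and 36 and 12 in HCT116. MOV10L1 was thus seen almost only with DAC+SB, where MOV10 itself was lower.

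The other APOBEC family genes had no member with 100 counts in any library. APOBEC3H had 0 and 31 counts in H1299 (DMSO, then DAC+SB) and 15 and 16 in HCT116. APOBEC3A had 1 and 3 counts in H1299 and 1 and 13 in HCT116, and APOBEC2 had 1 and 25 in H1299 and 1 and 4 in HCT116. APOBEC3D had 42 and 35 counts in H1299 and 5 in each HCT116 library.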
